A study of Mus musculus with 10 samples.

Results

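The genes described here encode the extracellular matrix, the integrins that bind cells to it, and the secreted or membrane-bound proteases that cut it. They were chosen by gene symbol from a mouse liver microarray study: collagens, laminin chains, integrin chains, ADAM and ADAMTS proteins, matrix metalloproteinases (Mmp) and their inhibitors (Timp), fibrillins, fibulins and lysyl oxidases. The array named 42 such genes among the 5928 for which a probe set carried a single gene symbol. Each was represented by its probe set with the highest mean signal, and 9 of the 42 had more than 1 probe set (52 in all). The values are log2 signals as deposited, and a log2 difference of 0.585 equals 1.5-fold.

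The Affymetrix MG_U74Cv2 array, which reads each transcript with a set of short probes, was hybridised with liver RNA from 5 groups of males. The lines TgSREBP-1a and TgSREBP-2 overexpress human SREBP-1a or SREBP-2 as the nuclear, always active protein; SREBPs are transcription factors that switch on cholesterol and fatty acid synthesis. By background knowledge, the promoter of the transgenes is that of phosphoenolpyruvate carboxykinase, active in liver and kidney. With their wild-type littermates (SREBP wild type), the mice were aged 12 to 16 weeks. All 3 groups were given the high protein/low carbohydrate diet, which raises expression of the transgenes, over the last 2 weeks. Scap-/- mice lack SCAP, the escort protein that SREBPs need to reach the Golgi and be activated; the deletion used MX1-Cre, a recombinase that interferon induces and that is not restricted to hepatocytes. Scap-/- mice and their wild-type controls (Scap wild type) were 10 to 12 weeks old, ate Teklad chow, and both received 4 injections of polyinosinic-polycytidylic acid, an interferon inducer, with livers taken 14 days after the last; whether these controls carry Cre is not given in the sources used here. RNA of 5 mice was pooled for every group (20 µg) and each pool was run on 2 arrays, so the spread reported is that of repeat hybridisation, and differences between mice are not in it.

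In liver, a thin matrix lies between hepatocytes and the sinusoidal endothelium, and denser collagen surrounds vessels and bile ducts. Most of it is made by stellate cells, portal fibroblasts and endothelial cells. In fibrosis, activated stellate cells lay down fibrillar collagens, lysyl oxidases cross-link them, and metalloproteinases and their inhibitors set how fast matrix is removed. The question was whether livers with active nuclear SREBPs, or without SCAP, differed in the expression of these genes.

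The array held only part of this system. The genes most used to read liver fibrosis are Col1a1, Col1a2, Col3a1, Timp1, Mmp2, Mmp13, Lox and Fn1. Among the probe sets tested, none carried any of these as its single symbol, nor the integrin chains Itgav, Itgb3 and Itgb6. Probe sets with several symbols or none were not searched. The 42 measured genes were 3 fibrillar collagen chains, 6 basement membrane chains, 6 other collagens, 5 integrin alpha chains, 2 integrin beta family members, 7 ADAM and 6 ADAMTS family genes, 1 metalloproteinase, 2 metalloproteinase inhibitors, 2 fibrillins or fibulins and 1 lysyl oxidase. The symbol rule also caught Itgb1bp1, which encodes a protein that binds the tail of an integrin and is no integrin itself. In whole-liver RNA, fewer cells of a type and less RNA per cell cannot be told apart.

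SREBPs bind sterol regulatory elements near gene starts, so the promoters are shown of the genes with the largest differences from a wild type in the comparisons made here, Itga8 in TgSREBP-1a and Col4a2 in Scap-/-, and of the single member whose promoter held the element searched for, Col11a2. The windows run from 250 bases before to 50 bases after the start in the RefSeq annotation of GRCm38.p6, 5′ to 3′ on the gene's strand, and capitals mark the element. Col4a2 lies at chr8:11312555-11312854 (plus strand), Itga8 at chr2:12301895-12302194 (minus strand) and Col11a2 at chr17:34038888-34039187 (plus strand).
Col4a2: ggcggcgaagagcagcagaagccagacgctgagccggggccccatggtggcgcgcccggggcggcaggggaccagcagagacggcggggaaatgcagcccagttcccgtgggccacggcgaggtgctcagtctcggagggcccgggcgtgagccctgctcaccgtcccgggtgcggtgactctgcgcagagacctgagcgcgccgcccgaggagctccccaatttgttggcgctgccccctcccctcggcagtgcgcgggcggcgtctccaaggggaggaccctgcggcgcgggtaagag
Itga8: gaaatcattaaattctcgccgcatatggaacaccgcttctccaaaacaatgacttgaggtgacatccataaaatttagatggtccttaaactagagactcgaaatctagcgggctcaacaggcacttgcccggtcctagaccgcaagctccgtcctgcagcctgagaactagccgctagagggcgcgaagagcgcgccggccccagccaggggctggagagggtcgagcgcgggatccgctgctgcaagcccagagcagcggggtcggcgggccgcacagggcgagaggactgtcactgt
Col11a2: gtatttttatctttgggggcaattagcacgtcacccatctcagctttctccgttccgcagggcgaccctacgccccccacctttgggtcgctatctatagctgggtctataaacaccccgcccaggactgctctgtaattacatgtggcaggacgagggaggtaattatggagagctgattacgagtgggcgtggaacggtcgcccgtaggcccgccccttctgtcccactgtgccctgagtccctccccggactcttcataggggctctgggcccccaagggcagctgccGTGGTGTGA

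The element was TCACNCCAC, the LDL receptor type of sterol regulatory element, searched on both strands with no other motif. The RefSeq table held a window for 25 of the 42 genes. The element was in 1 of the 25 (4.0%), against 408 of all 32851 windows (1.24%). In Col11a2 it reads GTGGTGTGA on the gene's strand, which is the element on the opposite strand, at bases 42 to 50 after the start. A match of letters is a description and not a binding site, and the search was extended to all members after their values were seen. Col11a2, a cartilage collagen XI chain, had closely similar signals on all arrays, as given below.

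The 42 genes covered a wide range of signal, and the brightest probe set of each gene was taken, so their level is not set against that of the array. The median of their means over the 10 arrays was 5.21, and 11 of them lay under 3.54, the lower quartile of all probe sets tested. The files give no call of presence, so these dim genes have values whose relation to background is unknown. Group means of a gene were close: in 39 of the 42 they spanned less than 0.5, and the widest span was 0.53. Duplicate arrays of a pool correlated at 0.992 to 0.994 over all probe sets, and array medians were 4.7 to 4.77. The median gap between duplicates over the 42 genes was 0.16 in Scap-/-, 0.10 in Scap wild type, 0.12 in SREBP wild type, 0.091 in TgSREBP-1a and 0.096 in TgSREBP-2.

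**Figure D1:**
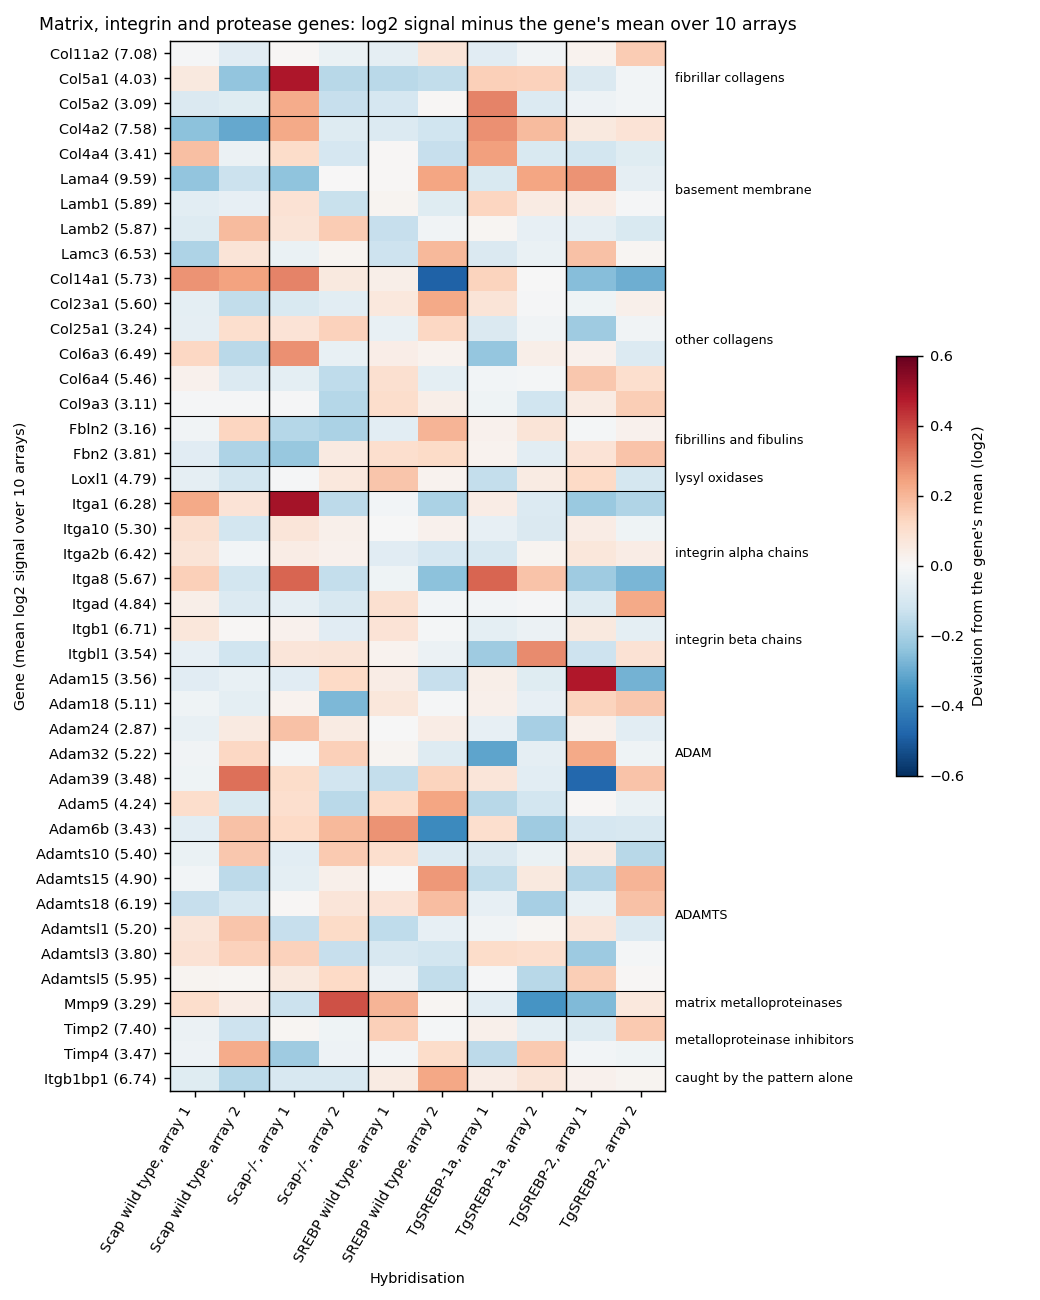
Each cell is the log2 signal of a gene on an array minus the mean of that gene over the 10 arrays (colour scale from -0.6 to 0.6), with genes in rows by class, their mean in brackets, and the 2 arrays of each pool side by side. Some rows hold a block of like colour that covers both arrays of a pool, as Col14a1 does in Scap wild type and in TgSREBP-2. The first Scap-/- array differs from the second in Itga1, Col5a1 and Itga8.

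No matrix, integrin or protease gene passed the test in any of the 4 comparisons. A gene was called at an adjusted p under 0.05 in limma (Benjamini-Hochberg over the 11868 probe sets) and a fold of 1.5 or more. Of the 42 genes, 0 were called in Scap-/- against Scap wild type, where 0.0843% of all probe sets were. In TgSREBP-1a against SREBP wild type 0 were called against 1.04% of all probe sets, in TgSREBP-2 against SREBP wild type 0 against 0.118%, and in TgSREBP-1a against TgSREBP-2 0 against 0.514%. Each of those shares, applied to 42 genes, comes to less than 1 gene. The shares move with single arrays: leaving out an array in turn gave 3 to 11, 40 to 134, 7 to 17 and 23 to 65 calls over all probe sets in the 4 comparisons, against 10, 123, 14 and 61 with all arrays. At an unadjusted p under 0.05 the genes numbered 1 (2.38%), 4 (9.52%), 0 and 3 (7.14%) in the same order, against 3.8%, 9.4%, 6.34% and 7.74% of all probe sets. The smallest adjusted p of a member, in limma, was 0.999, 0.287, 0.852 and 0.34. The p-values compare these RNA pools, and the comparisons with SREBP wild type share its arrays.

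The intervals were narrow enough to bound the signal of most genes. The 95% interval of the difference lay within 1.5-fold in both directions for 40 of the 42 genes in Scap-/- (95.2%, against 94.8% of all probe sets). It did so for 38 in TgSREBP-1a against SREBP wild type (90.5% against 90.4%), for 42 in TgSREBP-2 (100% against 92.6%) and for 40 in TgSREBP-1a against TgSREBP-2 (95.2% against 91.8%). The genes whose interval reached past 1.5-fold were Col4a2 and Col5a1 in Scap-/-. In TgSREBP-1a against SREBP wild type they were Col14a1, Col5a1, Itga8 and Mmp9, and against TgSREBP-2 they were Col14a1 and Itga8. These bounds hold for the pools measured, since variation between mice is not in them. For the 11 genes with means under 3.54 they bound the signal alone, as its relation to background is unknown.

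**Figure D2:**
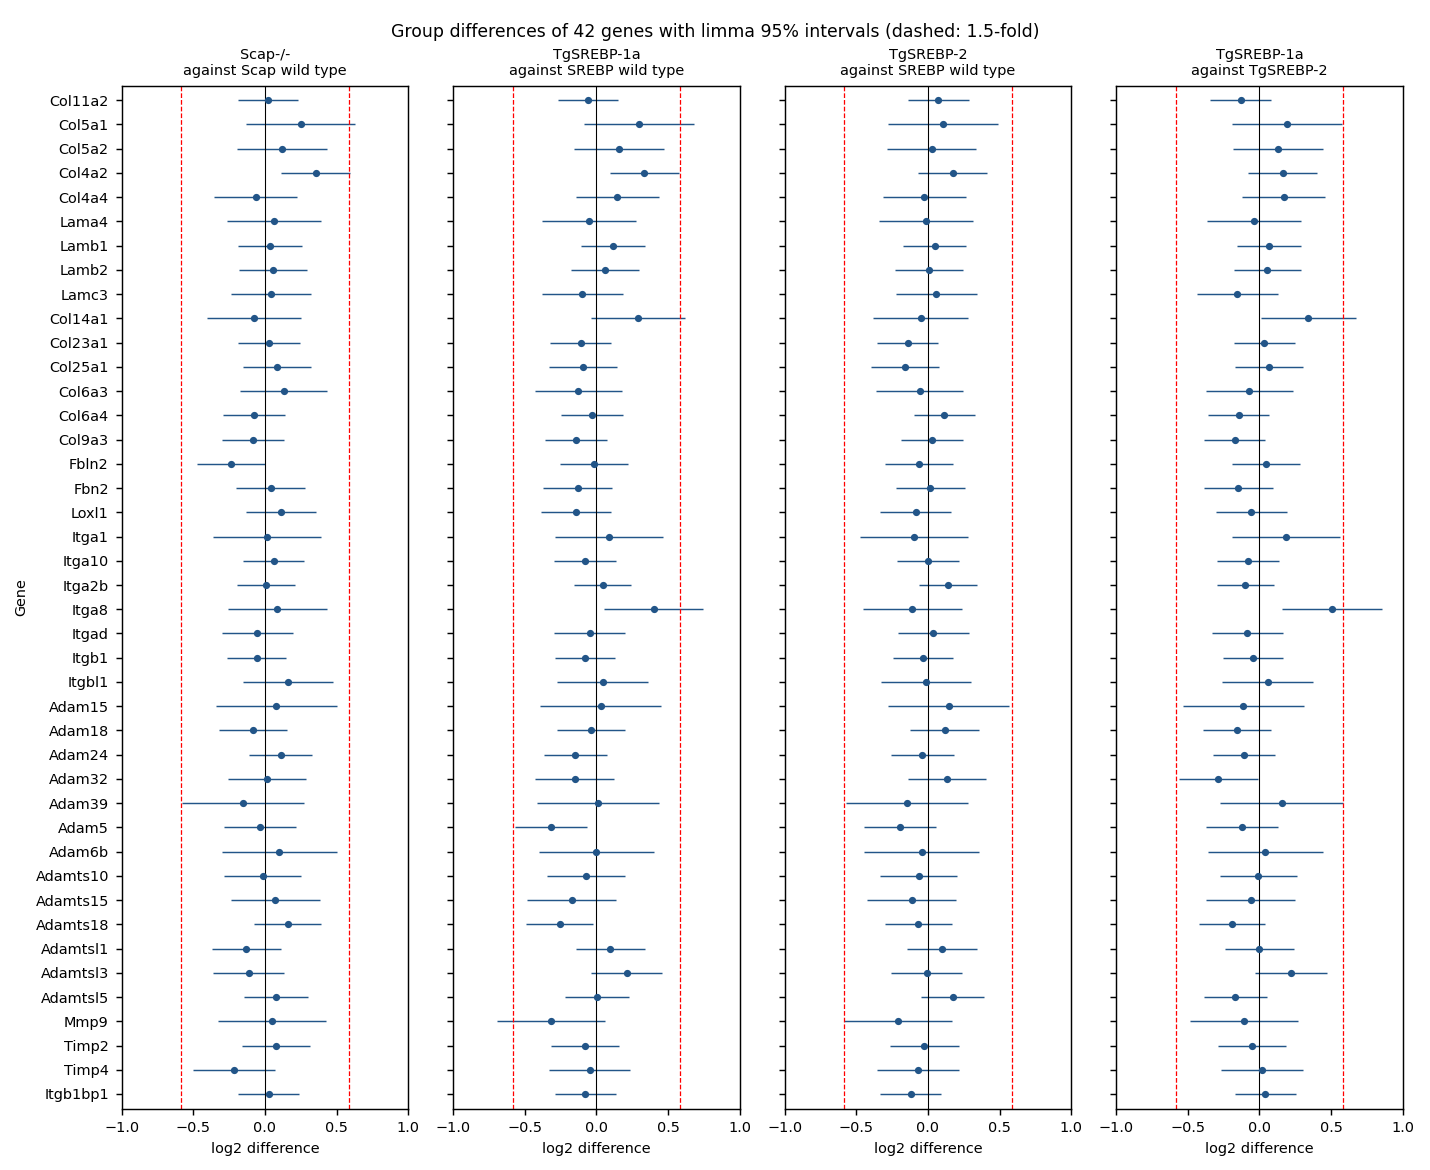
Points are log2 differences of the 42 genes in the 4 comparisons, bars their 95% limma intervals, and dashed lines 1.5-fold in either direction. No point lies beyond a dashed line, and the bars that reach past it belong to Col4a2, Col5a1, Col14a1, Itga8 and Mmp9.

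Among the basement membrane genes, Col4a2 had the largest difference of all 42 genes in Scap-/- and, after Itga8, the largest positive one in TgSREBP-1a. It encodes a chain of type IV collagen, the network-forming collagen of every basement membrane. Its log2 signal was 7.81 and 7.51 in Scap-/- against 7.34 and 7.27 in Scap wild type. It was 7.86 and 7.77 in TgSREBP-1a, 7.64 and 7.66 in TgSREBP-2, and 7.50 and 7.46 in SREBP wild type. Each of the 3 altered pools lay above its wild type with no overlap of arrays. The difference in Scap-/- was 0.35 (SE 0.11, 95% interval 0.11 to 0.59, 1.28-fold), with an unadjusted p of 0.0079 and an adjusted p of 0.999 in limma. In TgSREBP-1a it was 0.33 (SE 0.11, 95% interval 0.093 to 0.58, 1.26-fold, adjusted p = 0.287 in limma), and in TgSREBP-2 0.17 (95% interval -0.069 to 0.41, adjusted p = 0.884 in limma). The Scap-/- value rests on its duplicates unequally, at 0.20 without the first Scap-/- array and 0.51 without the second. The gene is read by a probe set with the suffix _f_at, which Affymetrix uses for probes shared by a gene family. The same suffix marks 9 of the 42 genes, Adam5, Adamtsl3, Col5a1 and Col6a3 among them. The other probe sets of Col5a1 and Adamtsl3, given below, are plain _at.

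The laminin chains, which with type IV collagen make up basement membranes, showed smaller differences. Lama4, the alpha chain of vascular laminins, had the highest signal of the module at 9.35 and 9.59 in Scap-/-, 9.35 and 9.46 in Scap wild type, 9.60 and 9.83 in SREBP wild type, 9.50 and 9.82 in TgSREBP-1a, and 9.86 and 9.54 in TgSREBP-2. The arrays of every compared pair of groups overlapped. Its differences were 0.065 in Scap-/- (95% interval -0.26 to 0.39), -0.052 in TgSREBP-1a (-0.38 to 0.28) and -0.015 in TgSREBP-2 (-0.34 to 0.31). Lamc3, a gamma chain, differed by 0.042, -0.098 and 0.058 in that order. Col4a4, a type IV chain known from the kidney filter, differed by -0.064, 0.14 and -0.025 and was dim, at 3.27 to 3.65. Over the 6 basement membrane genes the median difference was 0.050 in Scap-/-, 0.089 in TgSREBP-1a, 0.026 in TgSREBP-2 and 0.063 between the transgenics.

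The fibrillar collagens, the main substance of scar tissue, were represented by chains of the minor types V and XI. Col5a1, a chain of the type V collagen on which larger fibrils are started, had signals of 4.51 and 3.86 in Scap-/- and 4.09 and 3.79 in Scap wild type. It was at 4.17 and 4.17 in TgSREBP-1a, 3.94 and 4.01 in TgSREBP-2, and 3.87 and 3.88 in SREBP wild type. The Scap groups overlapped, and both transgenic pools lay above SREBP wild type. The difference in TgSREBP-1a was 0.29 (SE 0.17, 95% interval -0.087 to 0.68, adjusted p = 0.681 in limma), and the other Col5a1 probe set gave -0.057. That second probe set differed by 0.22 in TgSREBP-2 and by -0.28 between the transgenics, where the brighter one gave 0.10 and 0.19, so the 2 disagree in sign over TgSREBP-1a against TgSREBP-2. In Scap-/- the brighter probe set differed by 0.25 (95% interval -0.13 to 0.63), and by -0.077 without the first Scap-/- array. The second differed by 0.058 in Scap-/-. Col5a2, its partner chain, differed by 0.12 in Scap-/-, 0.16 in TgSREBP-1a and 0.025 in TgSREBP-2, with overlapping arrays each time. Col11a2, whose promoter held the element, had signals of 7.01 to 7.23 over the 10 arrays and differences of 0.022, -0.058 and 0.073.

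Of the other collagens, Col14a1 had the widest differences. It encodes type XIV collagen, which sits on the surface of collagen fibrils. Its signal was 5.87 and 5.73 in TgSREBP-1a, 5.48 and 5.44 in TgSREBP-2, and 5.77 and 5.25 in SREBP wild type, while the Scap groups were at 6.03 and 5.79 (Scap-/-) and 6.005 and 5.974 (wild type). The TgSREBP-1a arrays lay above the TgSREBP-2 arrays by 0.34 (SE 0.15, 95% interval 0.0098 to 0.67, adjusted p = 0.617 in limma) but overlapped with SREBP wild type. The difference from SREBP wild type, 0.29 (95% interval -0.041 to 0.62), was 0.55 without the first wild-type array and 0.031 without the second. Col6a3, a chain of the beaded microfibrils of type VI collagen, differed by 0.13 in Scap-/-, -0.13 in TgSREBP-1a and -0.058 in TgSREBP-2, with arrays overlapping. The membrane-spanning collagens Col23a1 and Col25a1 differed by -0.14 and -0.16 in TgSREBP-2, but the other Col25a1 probe set gave 0.15 there. The median of the 6 genes was -0.024 in Scap-/-, -0.10 in TgSREBP-1a and -0.055 in TgSREBP-2.

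Among the receptors, the integrin alpha chain Itga8 had the largest difference of any member, between the transgenics. It pairs with the beta 1 chain to bind ligands with an RGD motif, and in liver it is known from stellate cells and related mesenchymal cells. Its signal was 6.02 and 5.84 in TgSREBP-1a, 5.45 and 5.39 in TgSREBP-2, 5.64 and 5.42 in SREBP wild type, 6.02 and 5.52 in Scap-/-, and 5.81 and 5.56 in Scap wild type. Both TgSREBP-1a arrays lay above all arrays of TgSREBP-2 and SREBP wild type, and the Scap groups overlapped. The difference between TgSREBP-1a and TgSREBP-2 was 0.51 (SE 0.16, 95% interval 0.16 to 0.85, 1.42-fold), with an unadjusted p of 0.00805 and an adjusted p of 0.34 in limma. From SREBP wild type TgSREBP-1a differed by 0.40 (SE 0.16, 95% interval 0.052 to 0.74, 1.32-fold, adjusted p = 0.435 in limma) and TgSREBP-2 by -0.11. The gap between the duplicate Scap-/- arrays of this gene was about as wide as the largest group difference.

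The other integrin genes differed little. Itgb1, the beta chain shared by most collagen and laminin receptors, had the steadiest signal of the module. It was 6.73 and 6.64 in Scap-/-, 6.78 and 6.71 in Scap wild type, 6.79 and 6.70 in SREBP wild type, 6.65 and 6.67 in TgSREBP-1a, and 6.77 and 6.65 in TgSREBP-2, a span of 0.15 over the 10 arrays. Its differences were -0.058 in Scap-/- (95% interval -0.27 to 0.15), -0.081 in TgSREBP-1a (-0.29 to 0.13) and -0.035 in TgSREBP-2 (-0.24 to 0.17). Itga1, the collagen-binding partner of Itgb1, read 6.77 and 6.12 in Scap-/- and 6.50 and 6.36 in Scap wild type. The gap of 0.66 between those Scap-/- duplicates compares with group differences of 0.015, 0.086 and -0.099. The other, dimmer Itga1 probe set differed by -0.0034, -0.099 and 0.0027 in that order, and its Scap-/- duplicates lay 0.25 apart. Itga2b, the alpha chain of the platelet fibrinogen receptor, differed by 0.0058, 0.042 and 0.14, and in TgSREBP-2 its arrays (6.49 and 6.46) lay above SREBP wild type (6.35 and 6.32). Itgbl1, a secreted protein with integrin beta-like repeats, differed by 0.16 in Scap-/-, and Itgb1bp1 by 0.025, -0.080 and -0.12.

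**Figure D3:**
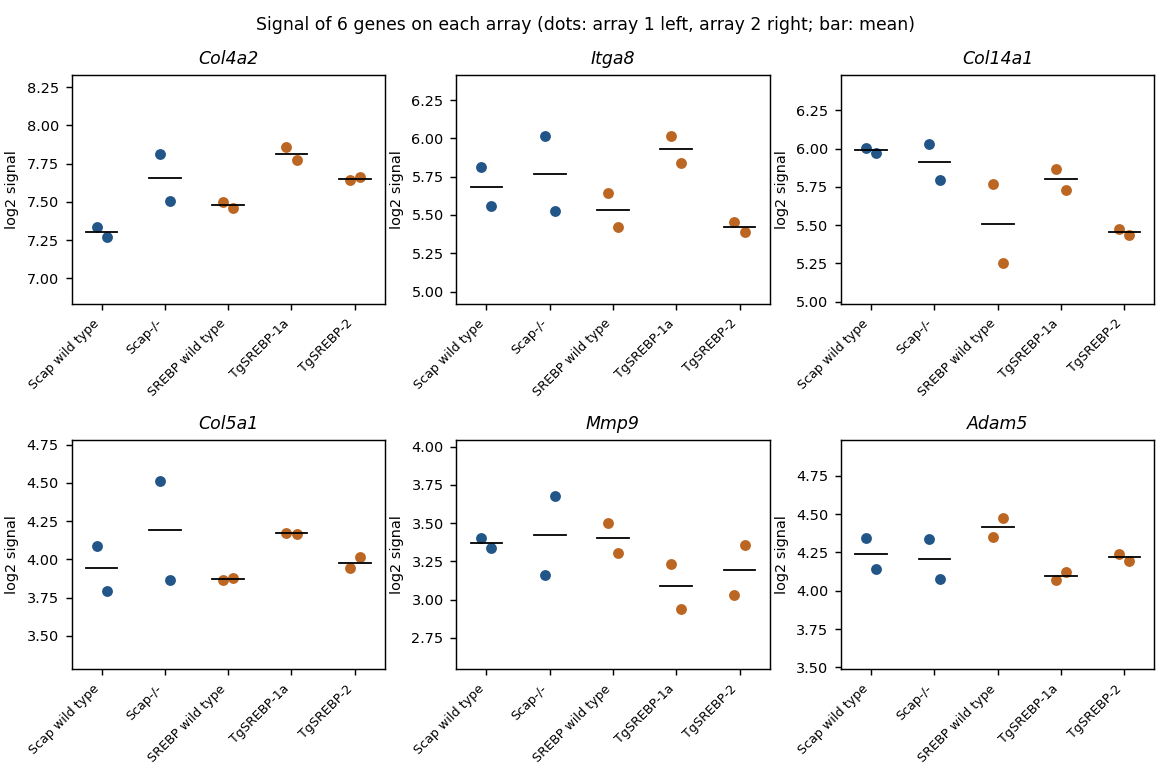
Log2 signal of Col4a2, Itga8, Col14a1, Col5a1, Mmp9 and Adam5 on each of the 10 arrays (dots, with array 1 on the left) and the mean of each pool (bars); every panel spans 1.5 log2 units. Col4a2 lies higher in all 3 altered pools than in their wild types, Itga8 is highest in TgSREBP-1a and the first Scap-/- array, and the duplicates of Col5a1 in Scap-/- and of Col14a1 in SREBP wild type lie far apart.

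The only matrix metalloproteinase measured was Mmp9, or gelatinase B, which cuts type IV collagen and denatured collagens and comes largely from neutrophils and macrophages. Its signals were low, at 3.16 and 3.67 in Scap-/-, 3.40 and 3.34 in Scap wild type, 3.50 and 3.30 in SREBP wild type, 3.23 and 2.94 in TgSREBP-1a, and 3.03 and 3.36 in TgSREBP-2. TgSREBP-1a lay below SREBP wild type without overlap, a difference of -0.31 (SE 0.17, 95% interval -0.69 to 0.062, adjusted p = 0.638 in limma), and the other comparisons overlapped. With an array left out in turn that difference lay between -0.46 and -0.17. Timp2, an inhibitor of these enzymes, read 7.41 and 7.37 in Scap-/-, 7.36 and 7.27 in Scap wild type, 7.54 and 7.39 in SREBP wild type, 7.43 and 7.34 in TgSREBP-1a, and 7.32 and 7.56 in TgSREBP-2. Its differences were 0.074, -0.079 and -0.024, each with a 95% interval inside 1.5-fold. The dimmer inhibitor Timp4 differed by -0.22 in Scap-/-, with overlapping arrays, and by -0.048 and -0.068 in the transgenic pools.

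The ADAM genes encode membrane proteins with a disintegrin and a metalloprotease domain, and all measured members but Adam15 are best known from testis. Their mean signals in these livers were 2.87 for Adam24, 3.48 for Adam39, 4.24 for Adam5, 5.11 for Adam18 and 5.22 for Adam32. Without calls of presence, these values do not show whether the transcripts were there, and signals of different probe sets are not comparable. Adam5 read 4.07 and 4.12 in TgSREBP-1a, 4.24 and 4.20 in TgSREBP-2 and 4.35 and 4.47 in SREBP wild type, so that both transgenic pools lay below their wild type. The difference in TgSREBP-1a was -0.32 (SE 0.11, 95% interval -0.57 to -0.066), with an adjusted p of 0.353 in limma. Adam32 read 4.90 and 5.17 in TgSREBP-1a and 5.45 and 5.19 in TgSREBP-2, a difference of -0.29 (95% interval -0.56 to -0.011, adjusted p = 0.604 in limma). The 2 probe sets of Adam39 disagreed in TgSREBP-1a, at 0.0087 for the brighter and -0.31 for the other (adjusted p = 0.315 in limma). Adam15, a broadly expressed member, had the widest gap between duplicates of the module, 4.04 and 3.28 in TgSREBP-2.

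ADAMTS proteases are secreted and act on proteoglycans and microfibrils, and the ADAMTS-like proteins share their other domains but lack the protease. Adamts18 read 6.14 and 5.99 in TgSREBP-1a and 6.27 and 6.37 in SREBP wild type, a difference of -0.26 (SE 0.11, 95% interval -0.49 to -0.025, adjusted p = 0.458 in limma). In Scap-/- its arrays (6.19 and 6.26) lay above those of Scap wild type (6.05 and 6.09) by 0.16. Adamtsl3 lay higher in TgSREBP-1a than in SREBP wild type by 0.21, and than in TgSREBP-2 by 0.22, but its other probe set gave -0.014 and -0.030. Adamts15, a protease that cuts aggrecan and versican, differed by -0.17 in TgSREBP-1a and -0.11 in TgSREBP-2, and its other probe set by -0.11 and -0.14. Adamtsl5 differed by 0.17 in TgSREBP-2, and Adamtsl1 by -0.13 in Scap-/-. The median of the 6 genes was 0.028, -0.034, -0.037 and -0.034 over the 4 comparisons.

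Of the elastic fibre genes, Fbln2, a fibulin of vessel walls and basement membranes, had the lowest difference of the module in Scap-/-. It read 2.99 and 2.97 there and 3.14 and 3.29 in Scap wild type, a difference of -0.23 (95% interval -0.47 to 0.0023, adjusted p = 0.999 in limma), at a signal near the bottom of the scale. Loxl1, a lysyl oxidase that cross-links elastin, read 4.79 and 4.86 in Scap-/- and 4.74 and 4.68 in Scap wild type. It read 4.65 and 4.84 in TgSREBP-1a, 4.91 and 4.69 in TgSREBP-2, and 4.96 and 4.82 in SREBP wild type. Its differences were 0.11 in Scap-/- (95% interval -0.14 to 0.36), -0.14 in TgSREBP-1a (-0.39 to 0.10) and -0.087 in TgSREBP-2 (-0.33 to 0.16).

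The 8 genes that the naming rule left without values were Adam6b, Adamts10, Col6a4, Fbn2, Itga10, Itgad, Lamb1 and Lamb2. By their brightest probe sets, their differences lay between -0.15 (Fbn2, between the transgenics) and 0.11 (Lamb1, in TgSREBP-1a) over the 4 comparisons. Other probe sets of Col6a4 differed by 0.23 in TgSREBP-2 and -0.24 between the transgenics (adjusted p = 0.779 and 0.624 in limma).

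As a set, the 42 genes in Scap-/- centred close to 0. Their median difference was 0.037 (quartiles -0.057 and 0.085), against 7e-04 over all probe sets. Above 0 lay 28 genes and below it 14, against 5961 and 5907 of all 11868 probe sets, a split that was not tested. The median size of a difference, without its sign, was 0.077 in both. Col4a2 was the sole member at an unadjusted p under 0.05. The arrays of the groups did not overlap for 7 of the 42 genes (16.7%), 6 higher and 1 lower, against 29.7% of all probe sets. The higher ones were Col4a2, Itgbl1, Adamts18, Loxl1, Adamtsl5 and Timp2, and the lower one was Fbln2.

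In TgSREBP-1a against SREBP wild type the median was -0.049 (quartiles -0.11 and 0.058), against -0.029 over all probe sets. Above 0 lay 16 genes and below it 26, against 4924 and 6944 of all probe sets. The median size was 0.096, against 0.094. The 4 genes at an unadjusted p under 0.05 were Itga8 and Col4a2, which were higher, and Adam5 and Adamts18, which were lower. Arrays did not overlap for 14 genes (33.3%), 6 higher and 8 lower, against 39.4% of all probe sets. The largest positive values belonged to Itga8, Col4a2, Col5a1 and Col14a1, and the largest negative ones to Adam5, Mmp9 and Adamts18.

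In TgSREBP-2 against SREBP wild type the differences were the smallest of the 4 comparisons. The median was -0.020 (quartiles -0.067 and 0.055), against -0.0081 over all probe sets, and the median size was 0.067, against 0.085. Above 0 lay 17 genes and below it 25, against 5639 and 6229 of all probe sets. The range ran from -0.21 for Mmp9 to 0.17 for Col4a2, and 0 genes reached an unadjusted p under 0.05 in limma. Arrays did not overlap for 10 genes (23.8%), 6 higher and 4 lower, against 35% of all probe sets.

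Between the transgenics, TgSREBP-1a minus TgSREBP-2, the median was -0.042 (quartiles -0.11 and 0.062), against -0.021 over all probe sets. Above 0 lay 18 genes and below it 24, against 5152 and 6716 of all probe sets. The median size, 0.11, was above the 0.086 of all probe sets. Arrays did not overlap for 22 genes (52.4%), 10 higher and 12 lower, against 37% of all probe sets, yet only Itga8, Col14a1 and Adam32 reached an unadjusted p under 0.05. Adamts18, Adamtsl5, Col9a3 and Lamc3 were among the genes with small gaps of -0.19, -0.17, -0.17 and -0.16. The excess of non-overlapping arrays was not tested, and the direction of these genes was divided.

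**Figure D4:**
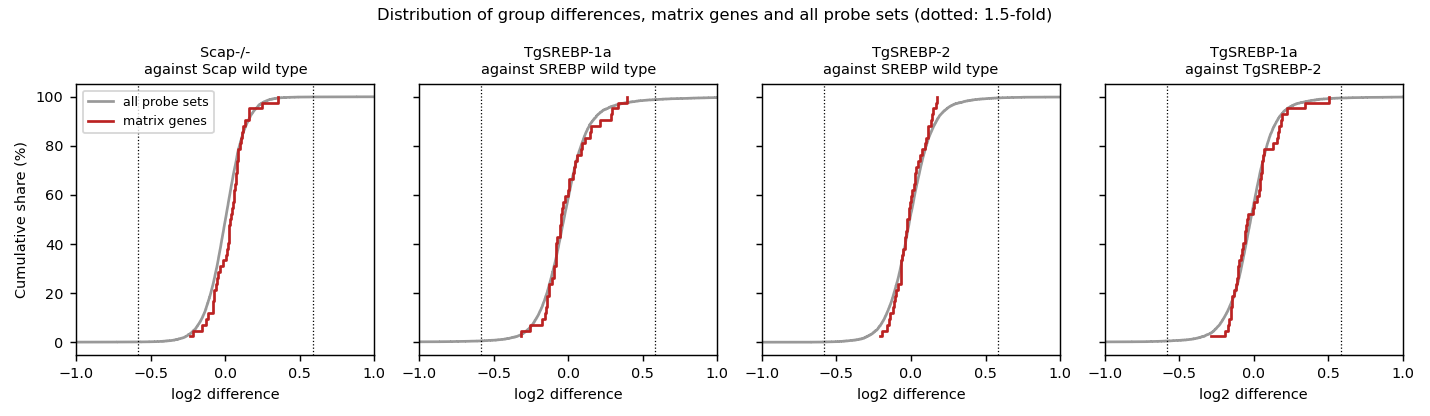
Cumulative share (in %) of log2 differences for the 42 genes (red) and all 11868 probe sets (grey) in the 4 comparisons, with dotted lines at 1.5-fold. The red curves stay within the dotted lines throughout and follow the grey ones, with medians of 0.037, -0.049, -0.020 and -0.042 for the genes.

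For 34 of the 42 genes (81%) the widest of the 5 gaps between duplicate arrays exceeded all 4 group differences, against 77.2% of all probe sets. A gap between single arrays varies more than a difference of means of 2, so this share describes the data and tests nothing. The widest gap within each group was 0.76 for Adam15 in TgSREBP-2, 0.66 for Itga1 in Scap-/- and 0.65 for Adam6b in SREBP wild type. In TgSREBP-1a it was 0.50 for Itgbl1, and in Scap wild type 0.36 for Adam39. Adam6b is named here for its gap, after its values were seen. Col4a2 was among the 8 genes in which a group difference was the larger. Probe design touches these values too, since 19 of the 42 genes are read by probe sets with a suffix other than plain _at, and 54.8% are plain against 63.1% of all probe sets.

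**Figure D5:**
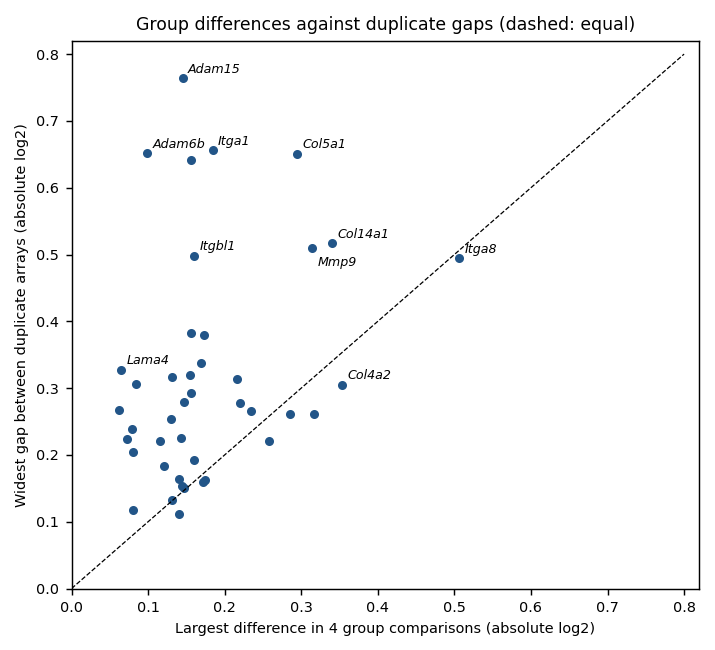
Each dot is 1 of the 42 genes, with its largest absolute log2 difference in the 4 comparisons on the x axis and its widest gap between duplicate arrays on the y axis; the dashed line marks equality. For 34 genes the dot lies above the line, and Col4a2 lies below it.

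Other genes of matrix biology, from lists that do not overlap with the 42, held no call either. Of 54 glycoproteins and proteoglycans listed 15 were measured, of 22 genes for collagen synthesis and processing 6, of 26 for TGF-beta and fibrosis signals 6, of 23 integrin adhesion partners 4, and of 19 in other extracellular protease systems 5. In limma 0 of these 36 genes were called in any comparison; at an unadjusted p under 0.05 there were 1 (2.78%), 4 (11.1%), 6 (16.7%) and 6 (16.7%) in the order used above, against 3.8%, 9.4%, 6.34% and 7.74% of all probe sets. The shares of 16.7% lie above the background; they were not tested, and the genes behind them went both ways. The list medians in TgSREBP-1a were -0.045 for glycoproteins and proteoglycans, -0.086 for collagen synthesis, 0.018 for TGF-beta signals, -0.049 for adhesion partners and -0.14 for the protease systems. In Scap-/- the 5 medians lay between -0.0045 and 0.064, and in TgSREBP-2 between -0.067 and 0.073.

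Sdc4, or syndecan-4, a cell surface proteoglycan that works with integrins, was among them in 3 comparisons. It read 3.59 and 3.72 in Scap-/-, 3.28 and 3.39 in Scap wild type, 3.47 and 3.55 in SREBP wild type, 3.47 and 3.41 in TgSREBP-1a, and 3.76 and 3.99 in TgSREBP-2. Scap-/- and TgSREBP-2 lay above their wild types, by 0.32 (adjusted p = 0.999 in limma) and 0.37 (adjusted p = 0.444 in limma), and TgSREBP-1a differed from TgSREBP-2 by -0.43 (adjusted p = 0.165 in limma).

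The lowest adjusted p in these lists belonged to Htra1, a secreted serine protease that cuts matrix proteins and acts on TGF-beta signalling. It read 10.10 and 9.96 in TgSREBP-1a, 9.75 and 9.77 in TgSREBP-2 and 9.68 and 9.42 in SREBP wild type. Both TgSREBP-1a arrays lay above these others, with a difference of 0.48 from SREBP wild type (adjusted p = 0.0688 in limma). Bgn, the proteoglycan biglycan, differed by 0.37 (adjusted p = 0.441 in limma) and Parva, an integrin-linked adaptor, by -0.58 (adjusted p = 0.307 in limma). Plg, the plasma protease precursor plasminogen, which hepatocytes secrete, was at 8.73 and 8.73 in TgSREBP-1a and 9.44 and 9.22 in TgSREBP-2, a difference of -0.60 (adjusted p = 0.24 in limma).

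Markers of macrophages were higher in both transgenic pools than in SREBP wild type, with calls in TgSREBP-1a, where no matrix gene passed the test. Of 14 macrophage and Kupffer cell markers listed 3 were measured. Laptm5, a lysosomal protein of leucocytes, was higher in TgSREBP-1a than in SREBP wild type by 1.05 log2 units (adjusted p = 0.0054 in limma), and Vsig4, a complement receptor of Kupffer cells, by 1.14 (adjusted p = 0.0185 in limma). C1qc differed by 0.17 and was not called, so 2 of the 3 were called, against 1.04% of all probe sets. In TgSREBP-2 all 3 were higher, by 0.22 to 0.74, with 0 called against 0.118% of all probe sets. Each of the 3 had an unadjusted p under 0.05 in limma there, as did 6.34% of all probe sets. The summed linear signal of the 3 was 1195 to 1267 in TgSREBP-1a, 877.6 to 954.1 in TgSREBP-2, 546.7 to 706.7 in SREBP wild type, 739.8 to 957.1 in Scap-/- and 777.5 to 873.3 in Scap wild type. Of 16 stellate cell and fibroblast markers 3 were measured, and 0 were called in limma in any comparison, against at most 1.04% of all probe sets. At an unadjusted p under 0.05 there was 1 of the 3 in each comparison except Scap-/-, which had 0. The shares of all probe sets were 9.4% in TgSREBP-1a, 6.34% in TgSREBP-2, 7.74% between the transgenics and 3.8% in Scap-/-. The sums of the 3 were 237.8 to 258.2 in TgSREBP-1a, 176.8 to 193.5 in TgSREBP-2 and 128.7 to 157.5 in SREBP wild type. They were 158.9 to 203.7 in Scap-/- and 149.7 to 207.8 in Scap wild type. Most of that spread was Colec11, a secreted lectin, at 7.61 and 7.41 in TgSREBP-1a and 6.56 and 5.70 in SREBP wild type (adjusted p = 0.0722 in limma). Acta2, the smooth muscle actin of activated stellate cells, differed by -0.21 in TgSREBP-1a, -0.20 in Scap-/- and 0.085 in TgSREBP-2. The summed signal of the 42 matrix genes was 2708 to 2869 in TgSREBP-1a, 2730 to 2903 in TgSREBP-2, 2750 to 2863 in SREBP wild type, 2703 to 2729 in Scap-/- and 2600 in both Scap wild-type arrays.

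Markers of pancreatic acinar cells, which lie outside the liver, also differed between pools. Cpa1, a pancreatic carboxypeptidase, differed by -2.86 in Scap-/- (adjusted p = 0.000152 in limma) and by -4.39 in TgSREBP-1a (adjusted p = 7.04e-07 in limma). The 6 measured of 11 pancreatic acinar markers summed to 139.6 to 152.7 in Scap-/- and 466.6 to 479 in Scap wild type. They summed to 144.8 to 152.5 in TgSREBP-1a, 1682 to 2112 in TgSREBP-2 and 885.5 to 1384 in SREBP wild type. Of 7 bile duct markers 2 were measured, and Epcam fell by 0.63 on the log2 scale in TgSREBP-1a (adjusted p = 0.0054 in limma) and differed by -0.54 in TgSREBP-2 (adjusted p = 0.0587 in limma). The other, Sox9, went the opposite way, at 0.24 in TgSREBP-1a (adjusted p = 0.426 in limma) and 0.18 in TgSREBP-2. The endothelial sums of 3 markers were 527.5 to 575.4 in TgSREBP-1a, 460.2 to 562.8 in SREBP wild type, 470.3 to 507.6 in TgSREBP-2, 409.1 to 434.9 in Scap-/- and 461.9 to 467.9 in Scap wild type. The hepatocyte markers on this array were 3 of 14, with a mean of 8.11 for Apoh but 3.43 for Serpina1a and 2.86 for Ahsg, so the labelled tissue has little to be checked by here. The part of any of these lists in the matrix genes' differences was not tested.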

How the data were processed

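Per the submitters' processing notes, the authors made the deposited log2 values with RMA, which corrects background, normalises between arrays and summarises the probes; its version is not given in the sources used here, and the series' design names Microarray Suite 5.0. The values, 2.17 to 13.3, were used unchanged. Of 11934 probe sets, 66 controls were left out. Symbols came from the platform's annotation, which gave 7717 probe sets a single symbol; RefSeq matched 7677 of these and changed no membership count. limma 3.58.1 in R 4.3.3 fitted all 10 arrays and 5 groups at once (5 residual and 6.26 prior degrees of freedom), two-sided; the code was tested on simulated data. The median SE was 0.114. With 2 arrays a group, their number sets the precision.

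Genes given with values were the 6 highest and 6 lowest differences of each comparison, the 10 brightest, and the brightest of any class left over: 34 of 42. The members and lists were chosen with earlier results of these data known. Alternatives covered normalisation, dim and suffixed probe sets, probe set choice, variance trend, fold floor, arrays in the fit, replicate block and leaving out each array. No other column of sample values was in the table.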

Additional observations from a re-analysis of the deposited data

How the results depend on the processing

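The count of matrix genes called was 0 in each of the 4 comparisons under all 21 alternatives, the replicate block included (0 in each). Of 2748 values of single genes under the alternatives, 29 moved by more than the spread between arrays. That count cannot show robustness. Leaving out an array cannot shift a difference beyond that spread, and a changed fold floor, variance trend or replicate block does not alter the difference at all. The lowest adjusted p in limma for Itga8 between the transgenics was 0.0693, with the replicate block. The labels tie the replicate numbers to no shared batch. Deviations of same-numbered arrays correlated at 0.332, 0.24 and 0.216 in the comparisons with wild type and at -0.175 between the transgenics, and with 2 numbers a pairing cannot be settled.

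Calls over all probe sets, 10, 123, 14 and 61, were 19, 186, 37 and 96 with the replicate block and 4, 67, 4 and 36 with plain _at probe sets alone, where fewer are tested. With a 2-fold floor they were 59 in TgSREBP-1a and 31 between the transgenics, and with the Scap arrays alone 4 in Scap-/-. Calls in Scap-/- were 3 without the first Scap wild-type array, 6 without the second, and 6 without the first Scap-/- array. In TgSREBP-1a they were 40 and 57 without its first or second array and 63 without the second SREBP wild-type array. In TgSREBP-2 they were 7 without its first array and 9 without the second SREBP wild-type array. Between the transgenics they were 23 and 35 without the first or second TgSREBP-1a array and 30 and 38 without the first or second TgSREBP-2 array.

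In TgSREBP-1a against SREBP wild type the median was -0.022 after quantile normalisation, -0.025 after median centring and -0.017 after cyclic loess. In TgSREBP-2 it was -0.0039 after cyclic loess, -0.0017 with the brighter probe sets alone and 0.0027 with plain _at probe sets alone. Between the transgenics it was -0.0070, -0.015 and -0.016 after the 3 scalings and -0.079 with plain _at probe sets. With each array left out in turn, the medians ran from -0.0022 to 0.052 (Scap-/-), -0.058 to -0.018 (TgSREBP-1a), -0.020 to 0.0049 (TgSREBP-2) and -0.045 to 0.025 (between the transgenics). The scalings moved the median of all probe sets by at most 0.027. The cause of these shifts was not tested. With 1 pool a group, differences between mice are outside what any of these settings can reach.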

Other observations

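The 2 wild-type pools differ in age, diet and injections, and each is the control of other lines, so their difference was set out without a test. Scap wild type minus SREBP wild type had a median of -0.025 over the 42 genes, against -0.022 over all probe sets, and a median size of 0.098, against 0.091. Col14a1 had the largest value, 0.48, with 6.005 and 5.974 in Scap wild type and 5.77 and 5.25 in SREBP wild type. Lama4 had the lowest, -0.31, followed by Itgb1bp1 (-0.26) and Adamts18 (-0.25), and Itga1 differed by 0.26. For Col14a1 and Lama4, a difference of the wild types is thus larger than any difference of an altered pool from its own wild type.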
